A study of Lactuca sativa with 24 samples.

Results

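In leaves of lettuce (Lactuca sativa), 111 of the 31499 genes measured by RNA sequencing had reads in every deeply sequenced library of the variety Falstaff and not a single read in any deeply sequenced library of the variety Luna bionda. They were chosen on reads-per-million values (CPM), which scale the reads of each gene to the total of its library and are not divided by gene length. A member had at least 0.5 CPM in each of 7 Falstaff libraries and 0 reads in each of 11 Luna bionda libraries. The difference between the varieties in these 18 libraries therefore chose the members, and it is given here as a description with no test. The same rule with the varieties exchanged held for 66 genes.

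The study grew both varieties under white LED light and took leaves at day 0 and after 6 days with or without added ultraviolet light, in 24 libraries, 3 in each of 8 groups. All plants were wild type. The Falstaff groups were visible light at day 0, visible light at day 6, UVB at 0.4 W/m2 for 2.5 h per day and UVA at 0.4 W/m2 for 7.5 h per day. Luna bionda had the same first 3 groups and, in place of UVA, UVB for 7.5 h per day. Whether a group's 3 libraries stem from different plants is not stated, and a p-value then reflects only how far these libraries differ, for technical reasons or others. Groups follow the sample labels. The deposited tables hold the same sets of 3 Falstaff libraries under other names: the set labelled visible light at day 6 stands there as Time0, the set labelled day 0 as UVB1, the set labelled UVB as UVB2, and the set labelled UVA as Control. The Luna bionda sets of the tables also differ in part from the labels. Values by library and the test over all 4 groups do not depend on which of these names is right, whereas each contrast between named groups does.

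Varieties of a crop can differ in which genes they carry, in the sequence of shared genes and in which of them are transcribed, and RNA reads counted on a single reference do not separate these cases. Long noncoding RNAs (lncRNAs) are transcripts without a long reading frame, and as a class they tend to be present at lower levels and to vary more between individuals than messenger RNAs. Ultraviolet light is both a source of damage and a signal to leaves, where UVB is sensed by the photoreceptor UVR8. The reference table used here gives the members a locus number and a gene type but no product name, so no function is given for any of them.

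The deep libraries held 18679356 to 37215851 reads in Falstaff and 12072410 to 43276819 in Luna bionda. The other 6 libraries, 5 of Falstaff and 1 of Luna bionda, held 464282 to 1036697 reads, carried batch tags of a lower number series than the deep Falstaff ones, stood apart in composition and took no part in the choice of members. Among the deep Falstaff libraries, those of UVB carried tags from a number run apart from the rest. In every Falstaff comparison with UVB, the light and this run of tags therefore cannot be told apart. Reads of psbA, a plastid gene of photosystem II and a leaf marker fixed for this check, made up 28431 to 82829 CPM in the shallow libraries against at most 39.1 CPM in the deep ones. The plastid gene rbcL was at 64.6 to 124 CPM in the shallow libraries and at 0 in all deep ones. The part of this difference in the members' values was not tested. In all 24 libraries most low values were even, from 84.1% to 93.2% of the values of 1 to 20 reads, so counting errors below rest on read pairs.

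Most members were lncRNA genes. Of the 111, 81 (73.0%) were annotated as lncRNA and 30 (27.0%) as protein-coding. Among the 19003 genes that reached 0.5 CPM in all 7 deep Falstaff libraries, lncRNA genes made up 7.53% and protein-coding genes 91.9%. Of the 66 genes found only in Luna bionda, 51 (77.3%) were lncRNA genes, so lncRNA genes were in the majority in both sets. Among all genes with a mean of 2 to 5 CPM, 13.8% were lncRNA genes, where 36 of the 47 members at that level were. All 111 members matched the gene table by symbol.

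The members were low to moderate in reads. Their mean over the 7 deep Falstaff libraries ran from 1.14 to 25.04 CPM, with a median of 3.41 CPM, against a median of 15.0 CPM for the 19003 genes. There were 17 members at 10 CPM or more, 26 from 5 to 10, 47 from 2 to 5 and 21 from 1 to 2. The least covered member had 10 reads in its lowest deep Falstaff library, and the median of that lowest value over members was 42 reads. The 11 deep Luna bionda libraries together held 310210645 reads, so that 3 read pairs over the whole group, the limit that a count of 0 allows, come to 0.0193 CPM. The members' Falstaff means were 59.0-fold to 1295-fold that floor, with a median of 176-fold. The rule chose the members for these 0 reads, so the ratios describe the deep libraries and do not bound the difference between the varieties. In the shallow Luna bionda library the member LOC111892761 had 21.2 CPM, above its mean of 2.31 in the deep Falstaff ones. Floors and intervals cover counting error only. In RNA from whole leaves, fewer cells of a type and less RNA per cell cannot be told apart.

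**Figure D1:**
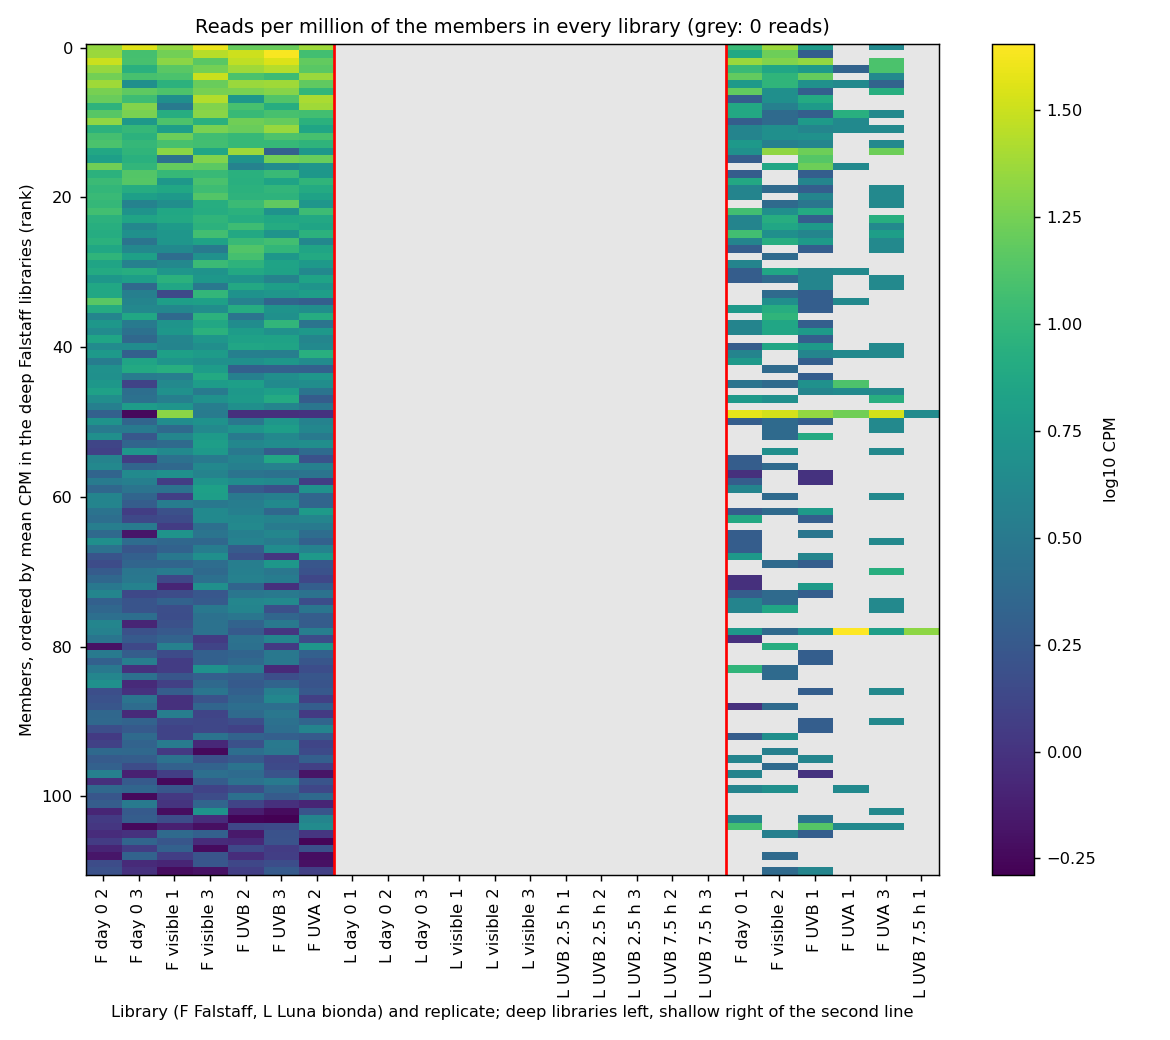
Level of the 111 members (rows, ordered by mean CPM) in each of the 24 libraries (columns), as log10 CPM, with 0 reads in grey. The 7 deep Falstaff columns are filled throughout and the 11 deep Luna bionda columns are empty, as the choice of members requires, and in the 6 shallow libraries on the right the Luna bionda column has 2 filled cells.

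The member with the most reads was the lncRNA gene LOC111917322. It had 21.8 and 36.7 CPM at day 0, 21.8 and 39.6 under visible light at day 6, 15.95 and 16.2 under UVB and 23.3 under UVA, a mean of 25.04 ± 9.40 (SD, n = 7 libraries). Both UVB libraries were the lowest of the 7, while the libraries of day 0 and of visible light spread widely and overlapped each other.

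The protein-coding gene LOC111883046 followed, with 23.1 and 11.996 CPM at day 0, 17.4 and 28.2 under visible light, 32.3 and 43.7 under UVB and 11.7 under UVA (24.05 ± 11.6, SD, n = 7). Its UVB libraries were the highest of the 7. Another protein-coding gene, LOC111897174, had 31.7 and 12.3 CPM at day 0, 20.9 and 14.5 under visible light, 29.7 and 35.4 under UVB and 15.5 under UVA (22.9 ± 9.33). Here UVB lay above visible light, but replicate 2 of day 0 lay between the UVB values. The protein-coding LOC111921161 had 22.1 and 8.80 CPM at day 0, 14.3 and 17.8 under visible light, 23.8 and 27.6 under UVB and 14.5 under UVA (18.4 ± 6.49). As in the previous 2 genes, UVB lay above visible light with no overlap.

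The other 6 among the 10 members with the most reads were 5 lncRNA genes and a coding gene. LOC111876455 (lncRNA) had 17.3 and 12.3 CPM at day 0, 12.6 and 31.6 under visible light, 12.6 and 11.1 under UVB and 23.3 under UVA. LOC111897679 (lncRNA) had 24.006 and 4.79 CPM at day 0, 9.18 and 16.1 under visible light, 23.1 and 23.9 under UVB and 15.1 under UVA. The replicates that lay farthest apart were those of visible light in the former and those of day 0 in the latter. LOC122195583 (lncRNA) had 16.2 and 11.3 CPM at day 0, 4.81 and 26.8 under visible light, 5.51 and 13.4 under UVB and 25.6 under UVA. LOC111918630 (lncRNA) had 9.35 and 19.8 CPM at day 0, 3.23 and 19.3 under visible light, 12.3 and 8.37 under UVB and 23.8 under UVA. The visible light libraries enclosed every other value in the former and all but 2 in the latter, so no group stood apart. LOC111893865 (lncRNA) was steadier, at 18.1 and 15.0 CPM at day 0, 12.9 and 17.9 under visible light, 18.3 and 20.2 under UVB and 9.99 under UVA. The coding gene LOC111899410 had 14.2 and 18.3, 8.33 and 20.3, 10.5 and 12.3 CPM in the same 3 groups and 11.7 under UVA. Its visible light libraries again enclosed all the others.

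**Figure D2:**
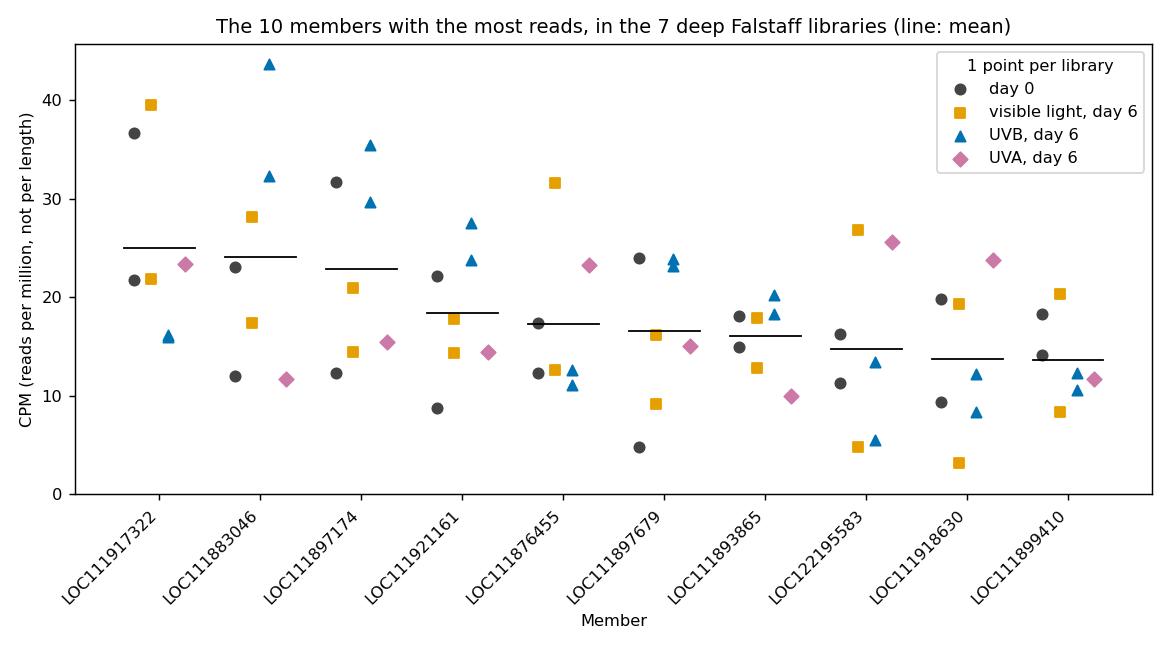
CPM (not per length) of the 10 members with the most reads, with 1 point per deep Falstaff library, marked by group, and a line at the mean of the 7. UVB points lie above both visible light points in LOC111883046, LOC111897174 and LOC111921161 and below both in LOC111917322, while the visible light points of LOC122195583 and LOC111918630 lie far apart.

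A further 4 members completed the 8 protein-coding ones with the most reads. LOC111918477 had a mean of 12.9 ± 5.55 CPM (SD, n = 7) and ranged from 5.56 in replicate 3 of day 0 to 21.4 in replicate 2 of the same group. LOC111886612 had 12.1 ± 2.36 CPM, and its highest library was 1.82 times its lowest. LOC111913722 had 10.9 ± 6.61 CPM, and its extremes were the replicates of visible light, at 2.79 and 19.2. LOC111909991 had 5.63 ± 2.18 CPM. Of these 4 coding genes, LOC111886612 was the one whose libraries all stayed within a factor of 2.

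Across the 7 libraries the median member had a wider range than the median gene. The ratio of highest to lowest CPM had a median of 3.45 in members (1.36 to 35.9) and of 2.53 in the 19003 genes. The split by gene type gave 3.54 against 2.93 for lncRNA genes and 2.97 against 2.49 for protein-coding genes. Among genes of similar level the gap was small except at the top. From 1 to 2 CPM the medians were 3.52 in members and 3.28 in all genes, from 2 to 5 CPM 3.58 and 3.39, and from 5 to 10 CPM 2.86 and 2.75. From 10 to 25 CPM, where 16 members lie, they were 3.63 and 2.37. Of these 16 members 9 were lncRNA genes, against 6.09% of all genes at that level. Level and gene type were not matched together.

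**Figure D3:**
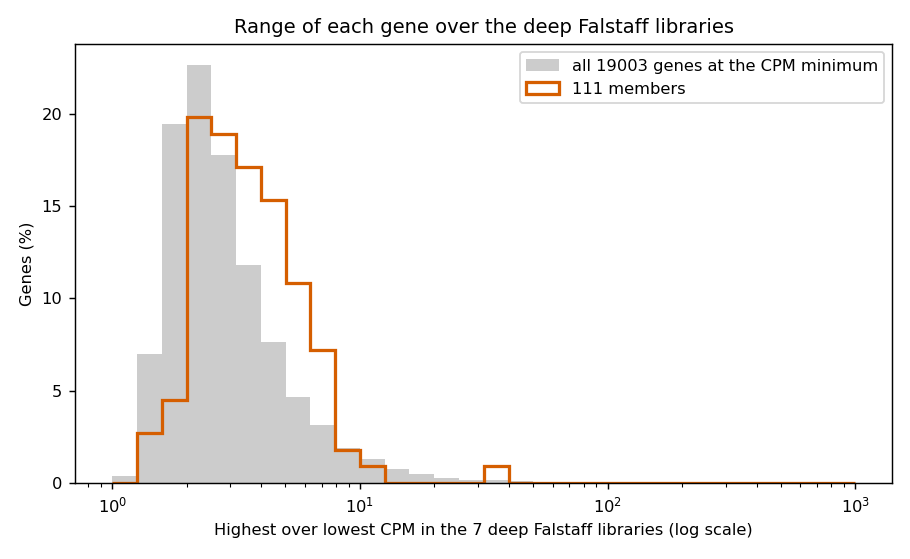
Share of genes (percent, vertical) by the ratio of the highest to the lowest CPM over the 7 deep Falstaff libraries (horizontal, log scale), for the 111 members (line) and all 19003 genes at the CPM minimum (grey). The line lies to the right of the grey distribution, with medians of 3.45 and 2.53.

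Replicates of a group differed from each other too. The median difference between the 2 deep libraries of day 0, as an absolute log2 ratio, was 0.79 in members and 0.55 in all 19003 genes. Under visible light it was 0.71 and 0.58, and under UVB 0.35 and 0.26. The rank order of the members correlated between libraries of a group at Spearman's rho of 0.704 to 0.858 over 3 pairs of libraries, and between libraries of different groups at 0.622 to 0.836 with a median of 0.720 over 18 pairs, a description in which all points share the same genes. Summed over the 111 members, the libraries held 671 and 505 CPM at day 0, 527 and 731 under visible light, 656 and 678 under UVB and 565 under UVA. The lowest and the highest sums thus stood in day 0 and visible light, and the replicates of each differed by more than the UVB libraries did. Replicate 3 of day 0 was the lowest library for 35 members (31.5%), where 27.0% of all genes had their lowest value. Replicate 3 of visible light was the highest for 27 members (24.3%), where 10.9% of all genes had their highest value.

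The steadiest members were lncRNA genes. LOC111897484 kept between 9.39 and 12.8 CPM, LOC111921041 between 7.01 and 9.62, and LOC111907285 between 7.35 and 11.3, with ratios of 1.36, 1.37 and 1.54. The coding gene LOC111921163 varied the most of all members. It had 2.04 and 0.580 CPM at day 0, 20.8 and 3.31 under visible light, 0.964 and 0.955 under UVB and 0.988 under UVA, so that replicate 1 of visible light stood far above the rest. The lncRNA gene LOC128126492 had 23.6 and 2.06 CPM in the UVB libraries and 20.6 and 7.25 under visible light, and its day 0 libraries, at 7.53 and 9.67, and its UVA library, at 5.55, lay between the UVB values. The lncRNA gene LOC111896932 reached 5.11 CPM in replicate 3 of visible light and 0.588 to 1.84 in the other 6 libraries. In LOC111921163 the visible light libraries were the 2 highest, though far apart. In the other 2 genes no group of 2 libraries lay above all the others.

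No member passed an adjusted p of 0.05 (limma, Benjamini-Hochberg over 22742 genes) in any comparison among the Falstaff groups. All 111 members were tested, on log2 of normalized reads plus 1, in the 7 deep libraries. The background was the same: 0.0% of all genes were called in each of UVB against visible light, UVA against visible light, visible light at day 6 against day 0, and the moderated F test over the 4 groups. The smallest adjusted p among members was 0.533, 0.9998, 0.711 and 0.403, in that order. At an unadjusted p under 0.05, 7 members were past the threshold for UVB against visible light (2 higher and 5 lower under UVB), which is 6.31% of members against 8.47% of all genes. For UVA against visible light there were 5 (1 higher, 4 lower), 4.50% against 4.45% of all genes. UVA had a single deep library, which is assumed to vary like the libraries of the other groups. For visible light at day 6 against day 0 there were 4 (3 higher, 1 lower), 3.60% against 6.91%. In the F test there were 8, 7.21% against 7.74%. These shares lay near or under the background.

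The members' median log2 difference was 0.04 for UVB minus visible light, -0.14 for UVA minus visible light and 0.14 for day 6 minus day 0, where the medians of all genes were -0.01, 0.02 and 0.04. The median standard error of a member was 0.57, 0.69 and 0.57, larger than these medians. Libraries of the 2 groups did not overlap in 50 members for UVB against visible light (29 higher and 21 lower under UVB), 45.05% of members against 43.1% of all genes. For visible light at day 6 against day 0 they did not overlap in 25 members (14 higher and 11 lower at day 6), 22.5% against 33.0% of all genes. Of the count models used as alternatives, edgeR's quasi-likelihood test also called no member, from 0, 1, 0 and 9 genes called in all. At an unadjusted p under 0.05 it had 9, 4, 3 and 9 members (8.11%, 3.60%, 2.70% and 8.11%), against 8.72%, 4.77%, 7.27% and 8.50% of all genes. DESeq2 called 3, 0, 1 and 4 members in the same order, from 309, 119, 95 and 925 genes called in all. At an unadjusted p under 0.05 it had 9.91%, 4.50%, 3.60% and 8.11% of members, against 11.1%, 6.53%, 9.27% and 13.4% of all genes. Without replicate 3 of visible light, limma called 540 genes and 1 member, LOC111921163, for UVB against visible light. Visible light was then its replicate 1 alone, the library in which this gene was high, with the spread taken from the other groups.

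The 3 members with the smallest p of the F test are given as not passing. The lncRNA gene LOC111886157 had 421 and 319 normalized reads at day 0, 457 and 446 under visible light, 101 and 117 under UVB and 158 under UVA. Its UV libraries were all lower than its other libraries. The log2 difference was -2.04 (SE 0.35, limma adjusted p = 0.533) for UVB and -1.51 (SE 0.43, limma adjusted p = 0.9998) for UVA against visible light, and the F test gave an adjusted p of 0.403. The shallow UVB library, which is not in this fit, had 17 reads of it, or 16.8 CPM, above the 3.75 and 4.55 CPM of the deep UVB libraries and near the deep visible light ones at 15.8 and 14.6 CPM. The shallow day 0 library had 0 reads of it, against 17.1 and 9.77 CPM in the deep ones, and the shallow visible light library had 7.23 CPM. The coding gene LOC111913106 had 4.96 and 7.74 CPM at day 0, 8.49 and 6.10 under visible light, 2.03 and 2.06 under UVB and 2.03 under UVA, with log2 differences of -1.96 (SE 0.50) and -1.81 (SE 0.61) for UVB and UVA and an adjusted F-test p of 0.572 (limma). Its deep UV libraries were again all below the others. LOC111921163, with replicate 1 of visible light far above its other libraries, had a log2 difference of -3.23 (SE 0.91) for UVB against visible light and an adjusted F-test p of 0.62 (limma). The 3 were also among the 4 members that DESeq2 called in the test over all groups, with the coding gene LOC128127770 as the other. LOC128127770 had 132.8 normalized reads in the single deep UVA library and 18.9 to 36.2 in the other deep Falstaff libraries.

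The 6 shallow libraries took no part in choosing the members, and they separated the varieties too. The shallow Luna bionda library held 23 reads of the members, 25.6 CPM with a 95% Poisson interval of 13.0 to 45.3, and 109 of the 111 members were at 0. At the mean level of the deep Falstaff libraries it would have held 556 reads. The shallow Falstaff libraries held 367 reads in 65 members at day 0 (354 CPM, interval 305 to 409), 338 reads in 67 members under UVB (333 CPM, 285 to 388) and 301 reads in 60 members under visible light (363 CPM, 307 to 426). The shallow UVA libraries, the smallest, held 60 reads in 15 members (129 CPM, 87.2 to 184) and 113 reads in 38 members (240 CPM, 181 to 311). Every shallow Falstaff interval lay above that of Luna bionda and below the 505 to 731 CPM of the deep Falstaff libraries. At the deep mean level they would have held 642 reads at day 0, 628 under UVB and 514 under visible light. The UVA libraries would have held 287 and 292. The distance of Luna bionda from 556 reads is therefore in part one that the shallow Falstaff libraries share. With 1 Luna bionda library no test was made. Plastid, mitochondrial and ribosomal RNA genes took 11.9% to 23.7% of the reads of these libraries.

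The genes found only in Luna bionda gave the mirror image. They had 360 reads in 43 of 66 genes in the shallow Luna bionda library and 0 reads in 4 of the 5 shallow Falstaff ones, with 6 reads in 3 genes in replicate 1 of UVA. Of the 111 members, 6 had reads in all 5 shallow Falstaff libraries, 19 in 4, 20 in 3, 29 in 2, 21 in 1 and 16 in none, and an absent read at this depth does not show an absent transcript.

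**Figure D4:**
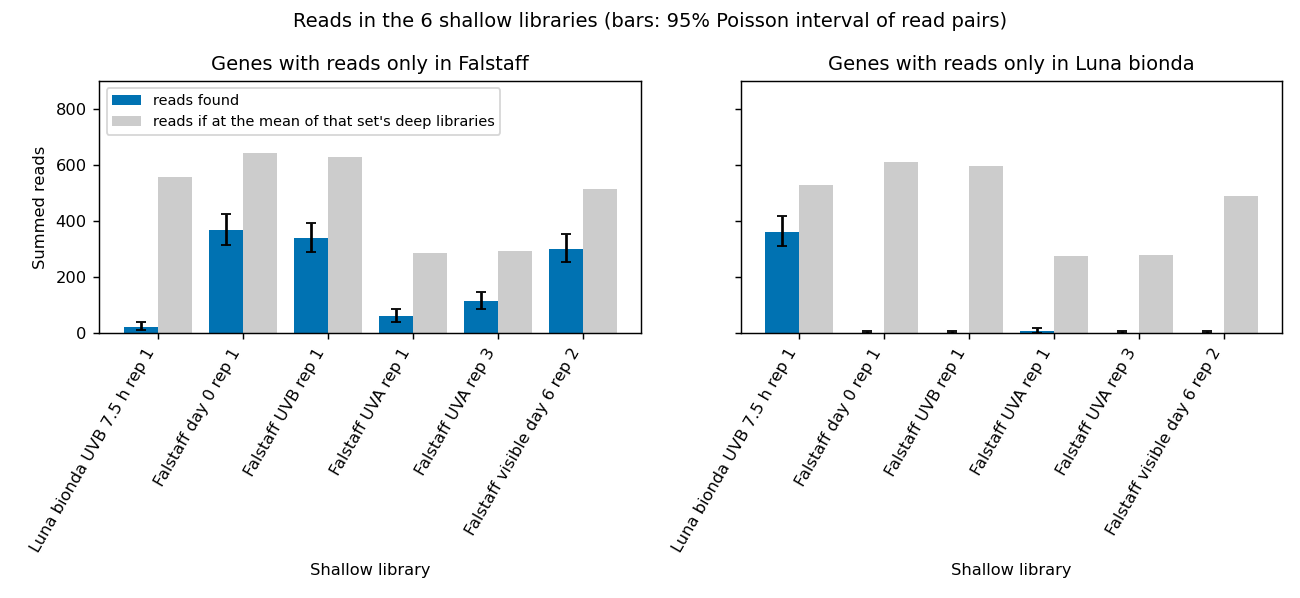
Summed reads in each of the 6 shallow libraries (blue, with the 95% Poisson interval of read pairs) for the 111 members on the left and the 66 genes found only in Luna bionda on the right, beside the reads that the mean of each set's own deep libraries would give (grey). The Luna bionda library holds 23 reads of the members where 556 would be reached, and all Falstaff libraries on the right hold 0 to 6 reads. The Falstaff libraries on the left also stay below their grey bars.

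The 23 reads belonged to 2 members. The lncRNA gene LOC111892761 had 19 of them (21.2 CPM), and it had 21 reads (45.2 CPM) in replicate 1 of UVA, against 1.03 to 3.68 CPM in the deep Falstaff libraries. LOC111921163 had the other 4 (4.45 CPM), and 17.2 to 38.6 CPM in the shallow Falstaff libraries, where all but 1 of the deep ones lay at or below 3.31. LOC111921163 was thus high in all the shallow Falstaff libraries. In the shallow Luna bionda library its 4.45 CPM, below that shallow Falstaff range, rested on a small count of 4 reads. LOC111892761 was at 2.41 to 6.37 CPM in the other 4 shallow Falstaff libraries, the lowest of them within its deep range. Without these 2 members the shallow Luna bionda library had 0 reads of the other 109, and the shallow Falstaff libraries had 321 at day 0, 311 under UVB, 31 and 94 under UVA and 271 under visible light.

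The edge of the set was not sharp. Just inside the CPM minimum were LOC128126022 at a lowest library of 0.514 CPM, LOC111900617 at 0.549 and LOC128127075 at 0.564. Just below it, with 0 reads in deep Luna bionda libraries, were LOC111906532 and LOC111904457, both at 0.484 CPM, and LOC111896666 at 0.467. Of the 19003 genes, 111 had 0 reads over the deep Luna bionda libraries, 6 had 1 read, 33 had 2, 27 had 3 or 4 and 33 had 5 to 10. Among those kept out by a single read were LOC111893158, with a Falstaff mean of 20.7 CPM, LOC111921643, with 7.69, and LOC111882032, with 6.33. For 21 of the genes with 1 or 2 reads, those reads stood in replicate 2 of Luna bionda under visible light, the deepest of all libraries, and without it the rule would hold for 146 genes.

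The place of the members along the reference (RefSeq assembly Lsat_Salinas_v11) was not used to choose them. In the order of genes, 10 members (9.01%) lay in 5 pairs of direct neighbours and no run was longer than 2. Reads of a member and an overlapping gene cannot be told apart without strand, and 3 members overlap another annotated gene. Of these, LOC111880645 overlaps a coding gene with 4 Falstaff reads and 1 Luna bionda read in the deep libraries, LOC111918453 a tRNA gene with 0 reads, and LOC128126022 a gene not analysed here.

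The genes directly beside members included some with large differences between the varieties. The 111 members had 211 neighbours that were not members, of which 146 had enough reads to be tested (limma on the 18 deep libraries, over the 3 shared conditions, members left out). Of these, 17 (11.6%) were lower in Luna bionda at an adjusted p under 0.05, against 4.12% of the 22557 genes tested, and 9 (6.16%) were higher, against 3.65%. The 17 lay beside 15 members. At the second place from a member 4.79% were lower in Luna bionda, at the third 7.48%, at places 4 to 5 9.25%, at places 6 to 10 6.14%, at 11 to 20 6.27% and at 21 to 50 4.50%. The labels' batch tags fall into a lower and an upper number series. All deep Falstaff libraries carry upper tags, those of UVB from a number run apart. So do the deep Luna bionda libraries other than those of UVB for 2.5 h and replicate 2 of day 0. With upper-tag libraries alone, over day 0 and visible light at day 6, 21 of 151 neighbours (13.9%) were lower in Luna bionda against 3.86% of all genes, and 10 (6.62%) were higher against 3.17%. The shares beyond the first place had no even course, and this comparison of neighbours was chosen after seeing the data.

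**Figure D5:**
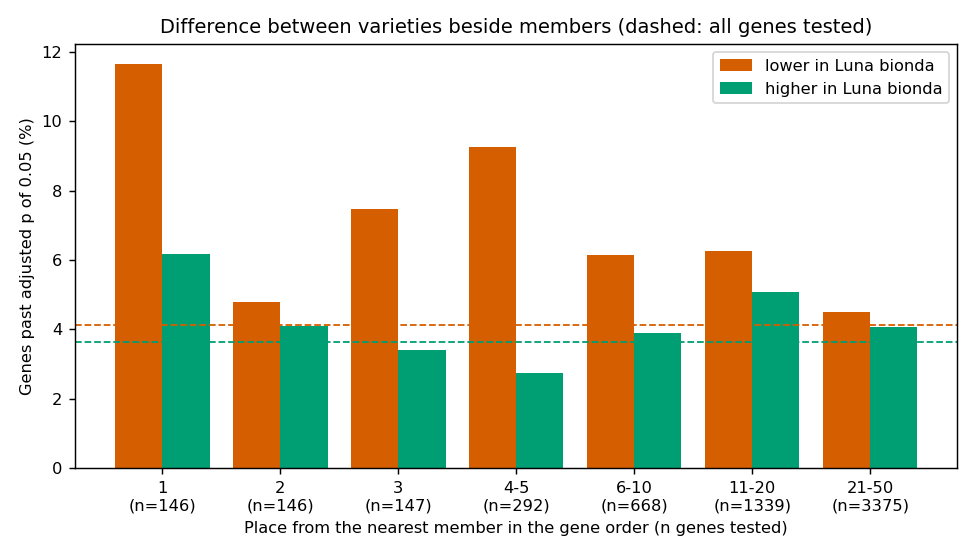
Share of tested genes (percent) that were lower (orange) or higher (green) in Luna bionda at an adjusted p under 0.05, by their place from the nearest member in the gene order, with the number tested under each pair of bars and dashed lines for all genes tested. Direct neighbours stand at 11.6% lower and 6.16% higher, against 4.12% and 3.65% of all genes.

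Several neighbours came close to the choice rule themselves. The coding gene LOC111921374, beside the member LOC111921375, had 31.7 ± 18.5 CPM (SD, n = 7) in Falstaff and 0.0319 ± 0.0622 (n = 11) in Luna bionda, a log2 difference of -8.79 (SE 0.48, limma adjusted p = 7.36e-09). The lncRNA gene LOC111921464 and the coding gene LOC111921882 lie on either side of the member LOC128126022. They had 10.95 and 7.96 CPM in Falstaff and 0.0084 CPM each in Luna bionda, log2 differences of -7.84 and -7.41. In the opposite direction, the coding neighbour LOC111897207 was higher in Luna bionda by a log2 difference of 4.84. Its direction shows that a neighbour of a member was not always lower in Luna bionda.

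Around 4 of the pairs of adjacent members the genes on each side were followed further. These stretches were picked after their values were seen. In a stretch of 10 genes, 3 lncRNA members, LOC111893865, LOC111893904 and LOC111893901, lay among the lncRNA genes LOC111893879 and LOC111893862, which were lower in Luna bionda by log2 differences of -6.90 (SE 0.44, limma adjusted p = 4.09e-08) and -6.91 (SE 0.61, limma adjusted p = 1.44e-06). The coding genes at the ends of the stretch, LOC111893858 and LOC111893843, had 19.98 and 31.9 CPM in Falstaff and 13.8 and 30.6 in Luna bionda and did not pass (limma adjusted p = 0.304 and 0.756).

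The lncRNA members LOC111920719 and LOC111918453 lay in a stretch of 8 genes whose ends were coding genes with almost no Luna bionda reads. LOC111883504 had 18.4 CPM in Falstaff and 2 reads in all deep Luna bionda libraries (log2 difference -8.55, SE 0.36, limma adjusted p = 5.79e-10). LOC111918454 had 18.8 CPM and 2 reads (log2 difference -8.66, SE 0.39, limma adjusted p = 1.01e-09). The 2 reads, as 1 pair, were what kept these genes out of the set. Between LOC111883504 and the members lay the lncRNA gene LOC122196933, with 425 reads in the deep Luna bionda libraries. It had 4.78 CPM in Falstaff and 1.36 in Luna bionda (log2 difference -1.82, SE 0.49, limma adjusted p = 0.0336).

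The coding members LOC111921161 and LOC111921163 stood directly between the coding genes LOC111921160, with 18.7 CPM in Falstaff and 9.32 in Luna bionda (limma adjusted p = 0.341), and LOC111921164, with 15.5 and 11.7 CPM (limma adjusted p = 0.757). The coding members LOC111909990 and LOC111909991 lay between LOC111909989, with 24.2 and 27.8 CPM (limma adjusted p = 0.0984), and LOC111909994, with 3.72 and 3.70 CPM (limma adjusted p = 0.868). Directly beside LOC111909991, the coding gene LOC111909993 had 0.923 CPM in Falstaff and 0 reads in the deep Luna bionda libraries. In these last 2 stretches the genes at the ends had reads in both varieties.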

How the data were processed

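Per the labels' protocols, leaf RNA (polyA) was amplified as cDNA, made into Nextera XT libraries and sequenced in pairs. Reads were aligned with STAR and counted with featureCounts 1.6.3, per the submitters' processing notes. For the build, annotation, strand and multiply matching reads, nothing is given in the sources used. Normalized signal per gene was deposited in 7 tables. Its values were whole multiples of a step in each library (100.0% whole at a tolerance of 0.001), which gave back whole reads, the values used here.

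CPM was computed from these reads. Tests used R 4.3.3 and limma 3.58.1 with its trend option, on log2 of reads over the median-of-ratios size factor plus 1, for genes with a mean of at least 10 normalized reads. edgeR 4.0.16 and DESeq2 1.42.0, on the recovered reads, were alternatives, with TMM, pseudocounts, no filter, a replicate block and libraries left out. The deposited log2 fold changes and p-values of the authors were not used.

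Named members were the 10 highest in mean CPM, the 8 highest coding ones, the 3 widest and 3 narrowest, the 3 with the smallest F-test p, those at the edges of the rule, and those in runs. Members and lists were chosen with earlier results of these data known. Of 31499 genes, 30914 matched the RefSeq table by symbol. It gives no product names for members, so functional classes and all leaf markers other than psbA and rbcL could not be filled.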

Additional observations from a re-analysis of the deposited data

Results flagged for a closer look

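Members had 0 reads in the deep Luna bionda libraries by the choice rule, yet a pair of them had reads in the shallow Luna bionda library (UVB for 7.5 h per day, replicate 1), which the rule did not use. LOC111892761 had 19 reads there and LOC111921163 had 4.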

How the results depend on the processing

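DESeq2 called 3 of the 111 members for UVB against visible light, from 309 of 22742 genes. For day 6 against day 0 it called 1 member, from 95 genes, and over all groups 4, from 925 genes. In limma 0 members were called in each. The DESeq2 test over all groups gave adjusted p-values of 0.000233, 0.0271 and 0.000385 for LOC111886157, LOC111913106 and LOC111921163. The cause of the difference between the tools was not tested. Leaving out a single library left its group with 1 library or none, so any call involving that group rests on the spread of the others. For UVB against visible light the members' median log2 difference was 0.04 with all 7 libraries. It was 0.40 without replicate 3 of visible light and -0.31 without replicate 1. UVA without its only deep library was not run. Deviations of same-numbered libraries from their group means correlated at 0.0677 to 0.122. With 2 libraries in a group these deviations mirror each other, so the check cannot settle whether the replicate numbers pair the libraries. UVA, with its only deep library, was not checked. With the replicate as a block 0 members were called, from 7, 0, 0 and 247 genes called in all (UVB, UVA, day 6, F test). At an unadjusted p under 0.05 there were then 15, 6, 10 and 13 members (13.5%, 5.41%, 9.01% and 11.7%), against 7.51%, 4.63%, 8.57% and 13.9% of all genes. With all 12 Falstaff libraries, 77 members were testable and 0 were called.

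The number of members was 50 at a minimum of 2 CPM, 85 at 1, 132 at 0.25, 117 with 1 Luna bionda read allowed, 150 with 2, and 111 to 146 on leaving out single libraries. Without plastid, mitochondrial and ribosomal RNA genes, the summed CPM of members in shallow Falstaff libraries was 412 at day 0, 392 under UVB and 315 in replicate 3 of UVA. Neighbours lower in Luna bionda were 35 of 209 with no filter (16.7%, all genes 4.07%), 10 of 132 with all 24 libraries (7.58%, all genes 1.37%) and 14 to 21 on leaving out single libraries. Neighbours higher were 14 with DESeq2 (9.66%, all genes 6.06%), 4 with all 24 libraries (3.03%, all genes 1.52%) and 6 to 12 on leaving out single libraries. In a shallow library a gene at 0 reads may still be at up to 5.79 to 12.9 CPM (3 read pairs), above the mean of most members.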
